A study of Mus musculus with 9 samples.

Results

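The 33 genes described here encode nuclear subunits of respiratory complexes II to V and cytochrome c. They were taken as a list of symbols, matched by Ensembl ID, by the complex they belong to and not by the size of a difference, and make up 33 of the 53700 gene IDs of the table. Of these, 4 belong to complex II, 9 to complex III, 6 to complex IV and 13 to complex V, and Cycs encodes cytochrome c. The tissue isoforms of cytochrome oxidase were left out, and so was Atp5o, whose counts in the EV libraries repeat those of another gene ID.

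The tissue was epigonadal white adipose tissue (eWAT), taken at week 12 from 9 female mice of NSG, an immunodeficient strain in which human tumours can grow, with no engineered allele beyond that background named in the labels. Mice 4, 7 and 10 were untreated. Mice 36, 37 and 41 received extracellular vesicles (EVs) that the human breast cancer line MDA-MB-231, of the triple-negative type, had shed, as 10 tail-vein injections spread over 5 weeks. Mice 17, 21 and 22 carried an orthotopic MDA-MB-231 tumour. Untreated is the label of the control mice, although the methods name both a tumour-free and a PBS control. Every mouse gave 1 library of whole fat pad RNA, so the values average over all cells of the pad. In such bulk samples fewer cells of a type and less RNA per cell cannot be told apart.

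Complex II passes electrons from succinate to ubiquinone, complex III passes them on to cytochrome c, and complex IV uses them to reduce oxygen. Complexes III and IV pump protons out of the mitochondrial matrix, and complex V, the ATP synthase, makes ATP from their return. In thermogenic fat the proton gradient can instead be released as heat through uncoupling protein, which is why respiratory chain genes are followed when white fat is thought to take on brown features.

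The libraries held 20097743 to 26149300 counts. The labelled tissue was checked against fixed marker lists, and 4 libraries stood apart. All 12 ovary markers were detected in untreated 10, EV 36 and EV 41, with summed levels of 9604, 4705 and 7265 CPM (counts scaled to the TMM-adjusted library size), against 7.45 to 18.9 CPM in the other 6, where Cyp19a1 was at 0 counts. In the same 3 libraries Inha, the inhibin subunit made by granulosa cells, stood at 1385, 1422 and 1407 CPM, and elsewhere at 0.537 to 4.15 CPM. In untreated 7 the 8 smooth muscle markers summed to 15580 CPM, against 755.5 to 3365 CPM elsewhere, with Myh11, smooth muscle myosin, at 5384 CPM. Adipoq, the fat cell hormone adiponectin, was at 131.5 to 727 CPM in these 4 libraries and at 2969 to 4422 CPM in the other 5. The 14 skeletal muscle markers summed to 3212, 8496 and 3903 CPM in the tumour-bearing libraries and to 12.4 to 399 CPM in the others. Mb, myoglobin, was at 111 to 174 CPM in the former and at 0 to 0.336 CPM in the latter. The 6 macrophage markers summed to 871 to 2365 CPM in tumour-bearing, 291 to 691 in untreated and 366 to 1129 in EV libraries. The 9 brown and beige fat cell markers summed to 256 to 397.5, 59.35 to 181 and 144.5 to 451 CPM in that order. The 6 mesothelial markers summed to 2010 CPM in untreated 7 and to 277 to 642 CPM elsewhere. None of the 33 subunit genes shared a symbol with another gene ID or repeated the EV counts of one.

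Together the 33 genes took 0.533 to 1.04% of all counts in a library. Their summed level was 13793 CPM in untreated 4, 4816 CPM in untreated 7 and 5124 CPM in untreated 10. In EV 36, 37 and 41 it was 5291, 9737.5 and 6297 CPM. In tumour-bearing 17, 21 and 22 it was 12110.0, 13159 and 10929 CPM. Untreated 4 was thus the highest of all libraries and untreated 7 the lowest, so that the untreated group spanned the other groups.

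**Figure D1:**
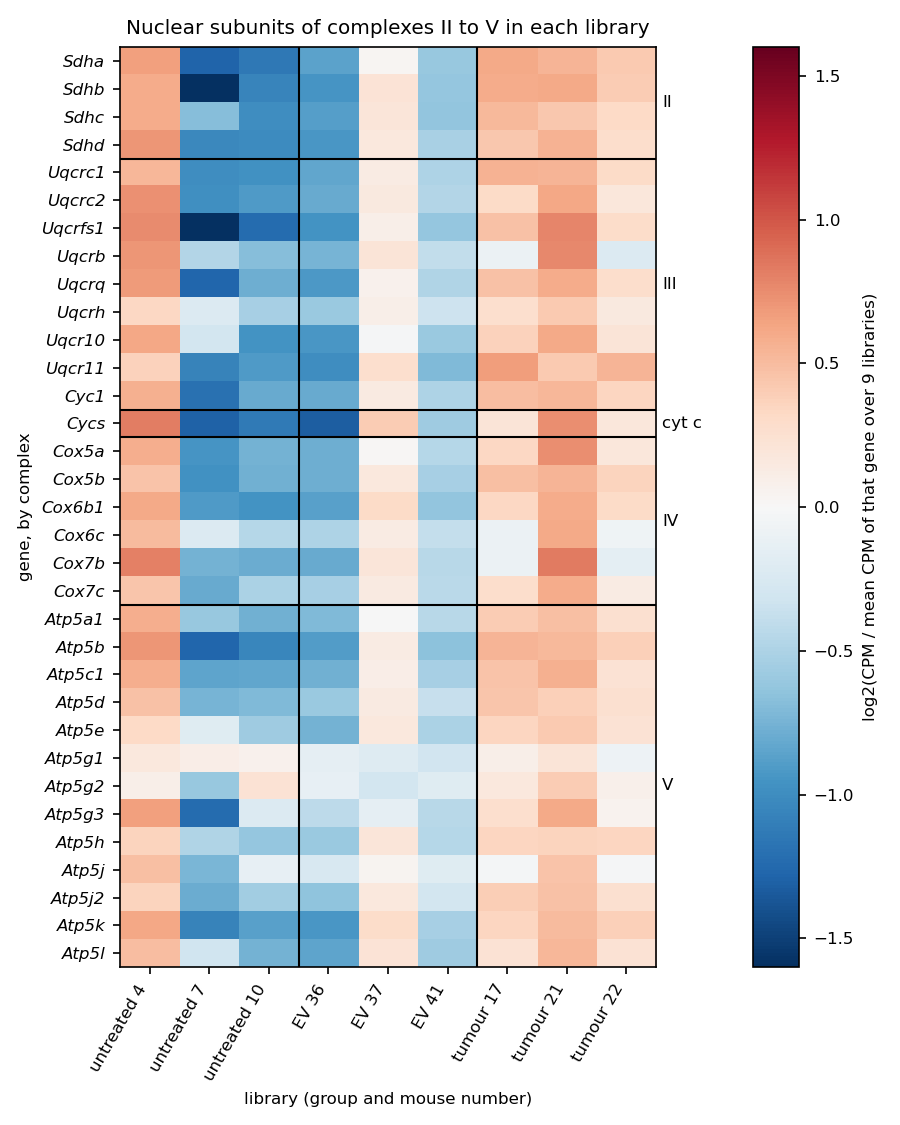
Level of each of the 33 genes (rows, by complex) in each of the 9 libraries (columns, by group and mouse), as log2 of its CPM over its mean of the 9 libraries. Nearly all rows are low in untreated 7, untreated 10, EV 36 and EV 41; the rows of Atp5g1 and Atp5g2 are the palest, with other libraries among their lowest.

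The same 4 libraries that stood apart by ovary or smooth muscle markers were the lowest 4 for 31 of the 33 genes, the exceptions being Atp5g1 and Atp5g2. Over all 17876 genes tested this order of libraries held for 15.9%. Without TMM scaling it held for 23 of the 33. The 15.9% is with TMM scaling, and the share over all genes without it was not computed. With TMM scaling the highest library was untreated 4 for 16 genes, tumour-bearing 21 for 15 and tumour-bearing 17 for 2. From its lowest to its highest library a gene varied by 1.43-fold (Atp5g1) to 5.25-fold (Uqcrfs1, the Rieske iron-sulfur protein of complex III), with a median of 2.95-fold. These 4 libraries were also low in fat cell markers, which summed to 2532 to 12770 CPM in the 4 low libraries and to 46300 to 71020 CPM in the other 5. The part of tissue makeup in the differences below was not tested beyond leaving these libraries out.

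**Figure D2:**
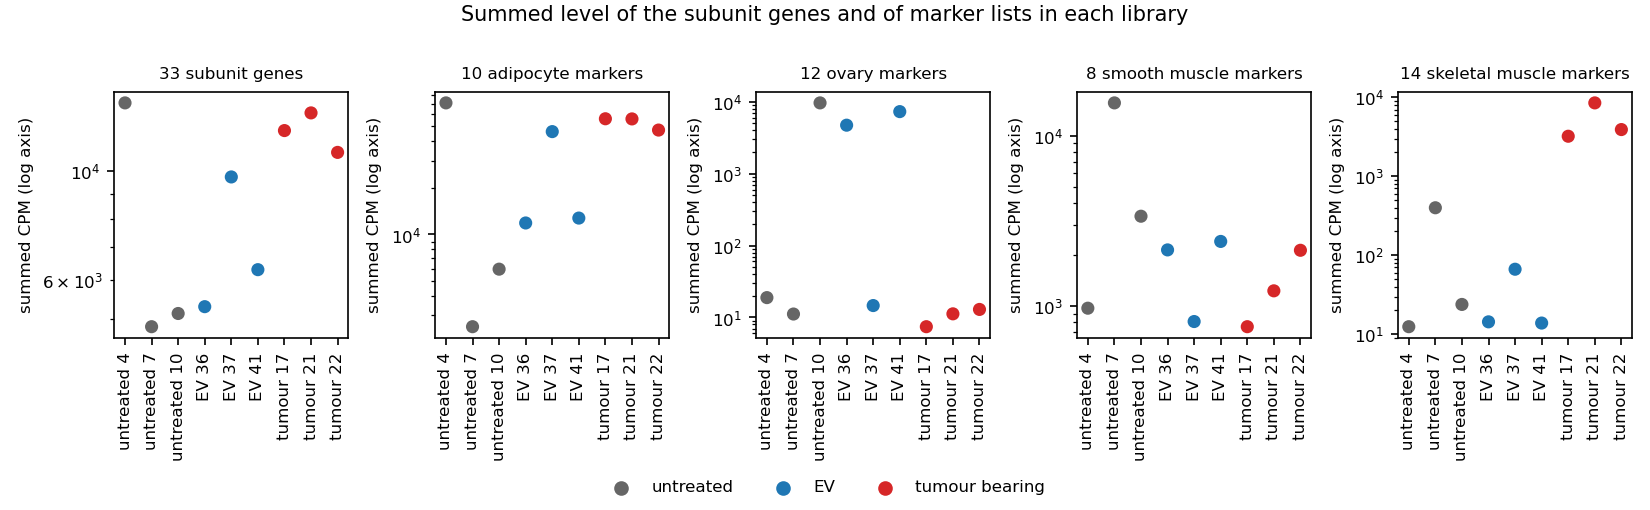
Summed CPM (log axis) of the 33 subunit genes and of the adipocyte, ovary, smooth muscle and skeletal muscle marker lists in each library, with points coloured by group. The subunit genes and the adipocyte markers were high in untreated 4, EV 37 and the 3 tumour-bearing libraries, ovary markers were high in untreated 10, EV 36 and EV 41, and skeletal muscle markers were high in the tumour-bearing libraries.

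Upstream sequence was searched for the core motifs of factors known to drive nuclear respiratory genes. Promoters of 300 bases, from 250 before to 50 after the start site (RefSeq, build GRCm38.p6), were at hand for 26 of the 33 genes. Both strands were read, and GCATGCGC can overlap its own reverse complement. The motif of NRF1, GCATGCGC, stood in 7 of the 26 promoters (26.9%) and in 2.71% of all 32851 promoters. That of the estrogen-related receptor ESRRA, CAAGGTCA, stood in 3 (11.5%, against 1.56% of all), that of GABPA, CCGGAAGT, in 3 (11.5%, against 3.89%) and that of YY1, AAGATGGC, in 1 (3.8%, against 2.75%). In all, 12 of the 26 held at least 1 of the 4. A match is a description of letters and not a shown binding site. The windows below show 1 motif of each of 3 factors, in genes of cytochrome c, complex III and complex V, with the motif in capitals and on the strand of the gene. They lie at chr6:50566596-50566655 (Cycs), chr10:80406854-80406913 (Uqcr11) and chr2:73911345-73911404 (Atp5g3), all on the minus strand, upstream of the annotated first exon. In Atp5g3 the motif reads on the opposite strand.
Cycs, NRF1: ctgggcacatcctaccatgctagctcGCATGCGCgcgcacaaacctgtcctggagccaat
Uqcr11, GABPA: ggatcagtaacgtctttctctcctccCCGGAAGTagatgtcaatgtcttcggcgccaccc
Atp5g3, ESRRA: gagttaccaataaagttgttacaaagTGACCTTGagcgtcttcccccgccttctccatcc
Cycs and Uqcr11 were among the genes that were low in the 4 libraries named above, and so was Atp5g3. The lowest level of Atp5g3 among the other 5 libraries was only 1.05 times its highest among those 4. For Atp5g3 the order was lost without TMM scaling. With scaling the order held for 31 of the 33 genes in all. Atp5g2, whose promoter held the NRF1 motif, was an exception. Any link between motifs and levels was not tested.

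The first comparison asked whether repeated EV injection changed these genes in eWAT. None of the 33 was called: by edgeR's quasi-likelihood test 0 of 33 passed an adjusted p of 0.05, against 0.00559% of all genes. By the same test 0 had an unadjusted p under 0.05, against 1.19% of all genes. DESeq2 called 0 of 33 (0.092% of all genes), with 1, Atp5g1, at an unadjusted p under 0.05 (2.44% of all genes). On the deposited TPM columns limma called 0 (0.0323% of all genes), with 0 at an unadjusted p under 0.05 (0.388%). The median log2 fold change of the 33 was -0.15, beside -0.00 over all genes tested, with 3 positive and 30 negative values; without TMM scaling it turned to 0.08, beside 0.12 over all genes. The range was -0.40 (Uqcr10) to 0.02 (Atp5j2), and every adjusted p was 1.0. The groups did not overlap for 1 gene, Atp5g1, which was lower in all EV libraries (lower without overlap in 1.32% of all genes), and 0 were higher without overlap (1.56% of all genes). The median turned to 0.48 without untreated 4 and to 0.03 without EV 36, and it was -0.40 without the 4 libraries that stood apart, which left 1 library on each side.

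The second comparison set tumour-bearing against untreated mice. Here 32 of the 33 had positive log2 fold changes, but none passed the test. The median was 0.59, beside -0.12 over all genes, and the range was -0.03 (Atp5g1) to 0.93 (Uqcr11). By edgeR 0 of 33 were called (0.218% of all genes), with 0 at an unadjusted p under 0.05 (11.9% of all genes) and a lowest adjusted p of 0.433. DESeq2 called 0 of 33 (4.27% of all genes), with 0 at an unadjusted p under 0.05 (16.9% of all genes). With limma 0 were called (0.00646% of all genes), with 0 at an unadjusted p under 0.05 (1.76%). The groups did not overlap, with higher tumour-bearing levels, for 1 gene, Uqcr11 (5.64% of all genes), and 0 genes were lower without overlap (6.15% of all genes). Without TMM scaling 9 of the 33 were higher without overlap (4.31% of all genes), and the median was 0.39, beside -0.45 over all genes. With TMM scaling untreated 4 lay above all 3 tumour-bearing libraries for 16 genes, between them for 16 and below them for Uqcr11. These placements changed without scaling. Untreated 4 was then below all 3 for further genes, such as Sdhb (239 against 250 to 272 CPM). It stayed above them for others, such as Cycs (175 against 130 to 173 CPM). The result turned on this library: without untreated 4 the median was 1.26, 27 of the 33 had an unadjusted edgeR p under 0.05, as did 29.0% of all genes in that fit, and the lowest adjusted p was 0.0841. The controls were then only untreated 7 and 10, with smooth muscle or ovary transcripts and fat cell markers at 2532 and 5965 CPM. Without the 4 libraries that stood apart, with untreated 4 as the sole control, the median was -0.16 and 5 of 33 values were positive.

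The third comparison set tumour-bearing against EV-injected mice. All 33 genes had positive log2 fold changes, with a median of 0.72, beside -0.06 over all genes, and a range of 0.28 (Atp5j) to 0.95 (Uqcrfs1). By edgeR 0 of 33 were called (0.257% of all genes), with 0 at an unadjusted p under 0.05 (14.1% of all genes) and a lowest adjusted p of 0.358. DESeq2 called 0 of 33 (5.3% of all genes), with 1, Atp5g1, at an unadjusted p under 0.05 (20.0% of all genes). With limma 0 were called (0.0517% of all genes), with 0 at an unadjusted p under 0.05 (2.59%). The groups did not overlap for 26 of the 33, each higher in tumour-bearing mice, where 11.7% of all genes were higher without overlap; 0 were lower without overlap, against 13.5% of all genes. Without TMM scaling 15 of the 33 were higher without overlap (4.06% of all genes), 29 had positive values and the median was 0.35, beside -0.48 over all genes. EV 37 lay below all tumour-bearing libraries for 26 genes and among them for 7. Its 10 fat cell markers summed to 46300 CPM, also below the 47380 to 56070 CPM of that group, and the part of this was not tested. Skeletal muscle markers moved with this difference, at 3212 to 8496 CPM against 13.8 to 66.5 CPM in EV libraries, and their part was not tested. Without the 4 libraries that stood apart, which left EV 37 alone in its group, the median was 0.24 and 32 of 33 values were positive. The last 2 comparisons share the tumour-bearing libraries and the first 2 the untreated ones, so their values are not independent.

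**Figure D3:**
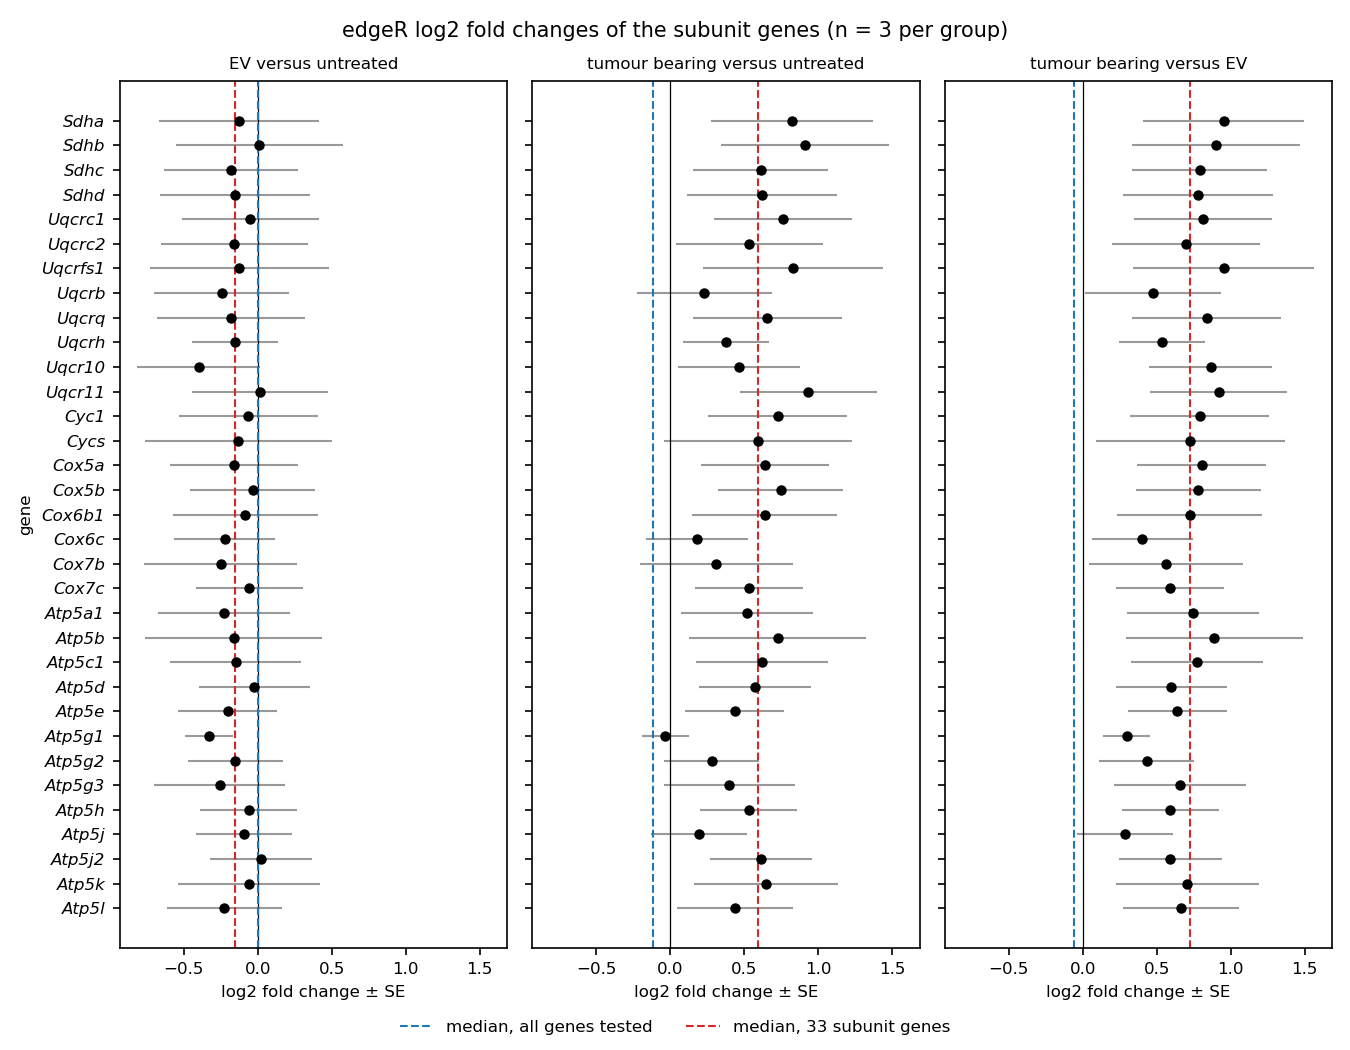
Log2 fold change with its standard error (edgeR, n = 3 per group) of each gene in the 3 comparisons, with dashed lines at the median of the 33 genes (red) and of all genes tested (blue). The red line stands at -0.15, 0.59 and 0.72 and the blue line at -0.00, -0.12 and -0.06. The standard error is larger than nearly all values in EV versus untreated and smaller than most values in the tumour comparisons. Without TMM scaling the first red line turns to 0.08.

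The 4 complex II genes had median log2 fold changes of -0.14, 0.72 and 0.84 in EV versus untreated, tumour bearing versus untreated and tumour bearing versus EV. Sdha, the flavoprotein that oxidises succinate, was at 939, 244 and 268 CPM in untreated 4, 7 and 10, at 329, 606 and 391 CPM in EV 36, 37 and 41, and at 905, 864.5 and 794.5 CPM in tumour-bearing 17, 21 and 22. Every tumour-bearing value was above every EV value and below untreated 4. Without TMM scaling untreated 4, at 709 CPM, lay within the tumour-bearing range. The log2 fold changes were -0.13 ± 0.54 (SE), 0.82 ± 0.55 and 0.95 ± 0.55 (edgeR adjusted p = 1.0, 0.509 and 0.403, n = 3).
Sdhb, the iron-sulfur subunit that hands electrons on from Sdha, was at 317, 67.7 and 100.84 CPM in untreated, 109, 243 and 136 CPM in EV and 317, 318 and 276 CPM in tumour-bearing mice, in the same order of libraries. It had the lowest p of the complex in tumour bearing versus untreated, with a log2 fold change of 0.91 ± 0.57 and an edgeR adjusted p of 0.488. Here untreated 4 lay within the tumour-bearing range with TMM scaling and below it without. Sdhc, a membrane anchor, was at 224, 92.3 and 73.9 CPM in untreated, 80.5, 169 and 94.96 CPM in EV and 211, 199.7 and 184 CPM in tumour-bearing mice. Its EV versus untreated value was -0.18 ± 0.45 and the groups overlapped. Sdhd, the other anchor, ran from 76.4 to 256 CPM and had log2 fold changes of -0.16, 0.62 and 0.78.

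Complex III held the gene of the largest value in each tumour comparison. Its 9 genes had median log2 fold changes of -0.16, 0.66 and 0.81 in the 3 comparisons, and 8 of the 9, all but Uqcrb, were above every EV library in all tumour-bearing mice (11.7% of all genes); without TMM scaling 5 of the 9 were (4.06%). Uqcrc1, a core protein that faces the matrix, was at 471, 164 and 166 CPM in untreated, 183, 358 and 231 CPM in EV and 477, 476 and 403 CPM in tumour-bearing mice. Uqcr11, a small subunit, was at 178, 66.0 and 73.5 CPM in untreated, 69.2, 167 and 84.6 CPM in EV and 219, 184 and 202 CPM in tumour-bearing mice. Uqcr11 was thus, with TMM scaling only, the one gene of the 33 for which untreated 4 lay below all tumour-bearing libraries. Its log2 fold change against untreated was 0.93 ± 0.46, with an edgeR p of 0.0774 and an adjusted p of 0.433.
Uqcr10, another small subunit, was at 231, 123 and 77.1 CPM in untreated, 78.7, 148 and 99.8 CPM in EV and 193, 228 and 173 CPM in tumour-bearing mice. It had the lowest p of the complex in both comparisons with EV, at -0.40 ± 0.41 against untreated and 0.86 ± 0.42 for tumour bearing versus EV (edgeR adjusted p = 1.0 and 0.358). The EV libraries overlapped the untreated ones and lay below all tumour-bearing ones.
Of the other 6 genes, Uqcrc2 (a core protein), Uqcrfs1 (the Rieske protein), Cyc1 (cytochrome c1) and Uqcrq had log2 fold changes of 0.53 to 0.83 in tumour bearing versus untreated. Uqcrh, the acidic hinge protein beside cytochrome c1, was flatter, at 106 to 213 CPM over all libraries with log2 fold changes of -0.16, 0.38 and 0.53. Uqcrb, which binds near the quinone site, had the smallest value of the complex in both tumour comparisons, 0.23 ± 0.46 and 0.47 ± 0.46.

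Cytochrome c, which carries electrons from complex III to complex IV, differed more between libraries than most of the 33 genes. Cycs was at 232, 53.8 and 60.02 CPM in untreated, 52.5, 174 and 88.6 CPM in EV and 151, 221 and 149 CPM in tumour-bearing mice, a 4.41-fold range. The groups overlapped in all 3 comparisons, with log2 fold changes of -0.13 ± 0.63, 0.59 ± 0.64 and 0.73 ± 0.64 (edgeR adjusted p = 1.0, 0.660 and 0.553). Between 34.9 and 47.7% of the combined counts lay on 4 near-identical copies of its coding sequence (at least 95% identity over at least 80% of it), Gm10053, Gm10108, Gm11625 and Gm13772, so that the count of Cycs itself is uncertain. With their counts added, an alternative chosen after seeing the data, the log2 fold changes were -0.17, 0.54 and 0.70.

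The 6 complex IV genes had median log2 fold changes of -0.12, 0.58 and 0.66. Of these, 2, Cox5a and Cox5b, were above every EV library in all tumour-bearing mice (11.7% of all genes). Without TMM scaling 2 of the 6 were as well (4.06%). Cox5b, the zinc-binding subunit on the matrix side and the most abundant of the 6 in CPM, was at 313, 118 and 134 CPM in untreated, 134, 259 and 159 CPM in EV and 319, 334 and 294 CPM in tumour-bearing mice. Its log2 fold change in tumour bearing versus untreated was 0.74 ± 0.42 (edgeR adjusted p = 0.460), with untreated 4 among the tumour-bearing values, or below them without TMM scaling. Cox5a, its neighbour in the complex, was at 191, 66.4 and 76.1 CPM in untreated, 74.7, 130.1 and 93.3 CPM in EV and 160.4, 214 and 145 CPM in tumour-bearing mice. It had the lowest p of the complex in tumour bearing versus EV, at 0.80 ± 0.43 (edgeR adjusted p = 0.385).
Cox6c, a small transmembrane subunit, was at 272, 165 and 140.1 CPM in untreated, 136, 211 and 147 CPM in EV and 179.8, 291 and 183 CPM in tumour-bearing mice. EV 37 lay above tumour-bearing 17 and 22, and the log2 fold changes were -0.23 ± 0.34, 0.18 ± 0.34 and 0.40 ± 0.34 (edgeR adjusted p = 1.0, 0.812 and 0.543). Without TMM scaling the last 2 turned to -0.06 and -0.01. Cox6b1, which faces cytochrome c, Cox7b and Cox7c had values of 0.31 to 0.64 in tumour bearing versus untreated.

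The 13 complex V genes had median log2 fold changes of -0.15, 0.52 and 0.64, and 12 of them, all but Atp5j, were higher in every tumour-bearing than in every EV library (11.7% of all genes); without TMM scaling 5 of the 13 were (4.06%). Atp5b, the beta subunit that holds the catalytic sites, was at 3082.5, 784 and 917 CPM in untreated, 1013, 2059.9 and 1194 CPM in EV and 2756, 2688 and 2458 CPM in tumour-bearing mice. Its log2 fold changes were -0.17 ± 0.60, 0.72 ± 0.60 and 0.89 ± 0.60 (edgeR adjusted p = 1.0, 0.580 and 0.461). Untreated 4 was above, and EV 37 below, all tumour-bearing libraries. Without TMM scaling untreated 4, at 2329 CPM, lay within the tumour-bearing range. Atp5a1, the alpha subunit that alternates with beta in the same ring, ran from 739.8 to 1898 CPM with values of -0.23, 0.52 and 0.75.
The ratio of Atp5b to Atp5a1 counts, a pair chosen after the values were seen, does not depend on library scaling. It was 1.62, 0.942 and 1.24 in untreated 4, 7 and 10, 1.31, 1.63 and 1.29 in EV 36, 37 and 41 and 1.64, 1.52 and 1.62 in the tumour-bearing libraries. It was lowest in the same 4 libraries in which nearly all of the genes were low.
Atp5j2, subunit f of the membrane part, was at 196, 88.4 and 104 CPM in untreated, 97.6, 171 and 124 CPM in EV and 200.3, 211 and 182 CPM in tumour-bearing mice. Its value in tumour bearing versus untreated was 0.61 ± 0.35, the lowest p of the complex there (edgeR adjusted p = 0.460). Untreated 4 lay within the tumour-bearing range, or below it without TMM scaling. Atp5e, the epsilon subunit of the central stalk, was at 16.6, 11.6 and 8.90 CPM in untreated, 7.88, 15.0 and 9.33 CPM in EV and 16.8, 17.7 and 15.6 CPM in tumour-bearing mice. It had the lowest p of the complex in tumour bearing versus EV, at 0.64 ± 0.33 (edgeR adjusted p = 0.379).
The stalk subunits Atp5c1 (gamma) and Atp5d (delta), the peripheral stalk subunit Atp5h, and the membrane subunits Atp5k and Atp5l had log2 fold changes of 0.44 to 0.65 in tumour bearing versus untreated. Atp5j, coupling factor 6, had values of -0.09, 0.19 and 0.28. Atp5h stood at 228, 229 and 227 CPM in the tumour-bearing mice, the closest agreement of the 33 within that group, against 128 and 117 CPM in untreated 7 and 10 and 229 CPM in untreated 4.

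Subunit c, which forms the rotating membrane ring, is encoded by 3 genes whose proteins differ in the targeting peptide that is cut off. The annotated coding sequences of Atp5g1 (chr11:96068852-96075670), Atp5g2 (chr15:102662864-102672352) and Atp5g3 (chr2:73908447-73911326; all minus strand, GENCODE M21 on GRCm38) ended in the same 78 residues. Over those 234 coding bases Atp5g1 differed from Atp5g2 at 36 positions (84.6% identity) and from Atp5g3 at 50 (78.6%), and Atp5g2 differed from Atp5g3 at 53 (77.4%). The 60-base window, in whole codons, with the most differences is shown to make clear how reads can tell the genes apart, with capitals at the 18 positions where the 3 are not identical. It spans coding bases 175 to 234 in Atp5g1, 205 to 264 in Atp5g2 and 190 to 249 in Atp5g3.
Atp5g1: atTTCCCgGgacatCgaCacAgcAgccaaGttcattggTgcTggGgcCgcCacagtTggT
Atp5g2: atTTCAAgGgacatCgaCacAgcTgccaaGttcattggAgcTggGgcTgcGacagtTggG
Atp5g3: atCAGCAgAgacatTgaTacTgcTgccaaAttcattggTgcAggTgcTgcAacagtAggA

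Of the 3 genes Atp5g1 varied least. It was at 70.2, 66.9 and 65.3 CPM in untreated, 56.2, 54.1 and 50.5 CPM in EV and 66.4, 72.2 and 58.9 CPM in tumour-bearing mice, or 67.5 ± 2.48, 53.6 ± 2.89 and 65.9 ± 6.64 CPM (SD, n = 3). It was lower in every EV library than in every untreated and every tumour-bearing one, but without TMM scaling both pairs of groups overlapped and the value in tumour bearing versus EV turned from 0.30 to -0.14. The log2 fold change in EV versus untreated was -0.33 ± 0.16 with an edgeR p of 0.0702, the lowest of the 33 genes there, and an adjusted p of 1.0.
Atp5g3 was at 585, 159 and 319 CPM in untreated, 279, 336 and 273 CPM in EV and 448, 566 and 386 CPM in tumour-bearing mice. It was higher in all tumour-bearing than in all EV libraries, and untreated 10 stood close below EV 37. Without TMM scaling untreated 10, at 420.5 CPM, was above EV 37 and tumour-bearing 17 and 22. Its log2 fold changes were -0.26 ± 0.44, 0.40 ± 0.44 and 0.66 ± 0.44 (edgeR adjusted p = 1.0, 0.672 and 0.461).
Atp5g2 was at 7.74, 4.77 and 8.49 CPM in untreated, 6.63, 5.90 and 6.35 CPM in EV and 8.18, 9.62 and 7.67 CPM in tumour-bearing mice. Between 93.7 and 96.9% of the combined counts lay on its near-identical copies Gm10175 and Gm10231, which summed to 126.0 to 193 CPM, so its own level is uncertain. For Atp5g1 the share on its copy Gm10039 was 10.7 to 18.1%, and Atp5g3 had no such copy.

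The ratio of Atp5g1 to Atp5g3 was compared as a measure within each library. Its log2 was -3.06, -1.25 and -2.29 in untreated 4, 7 and 10, -2.31, -2.63 and -2.44 in EV 36, 37 and 41, and -2.75, -2.97 and -2.71 in tumour-bearing 17, 21 and 22. The tumour-bearing values all lay below the EV values, and the untreated values spanned both. The differences were -0.26 for EV versus untreated, -0.61 for tumour bearing versus untreated and -0.35 for tumour bearing versus EV (exact permutation tests, 2-sided, p = 0.7, 0.4 and 0.1, adjusted over the 3 comparisons 0.7, 0.6 and 0.3). With 3 against 3 libraries 0.1 is the smallest p that can be reached.

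**Figure D4:**
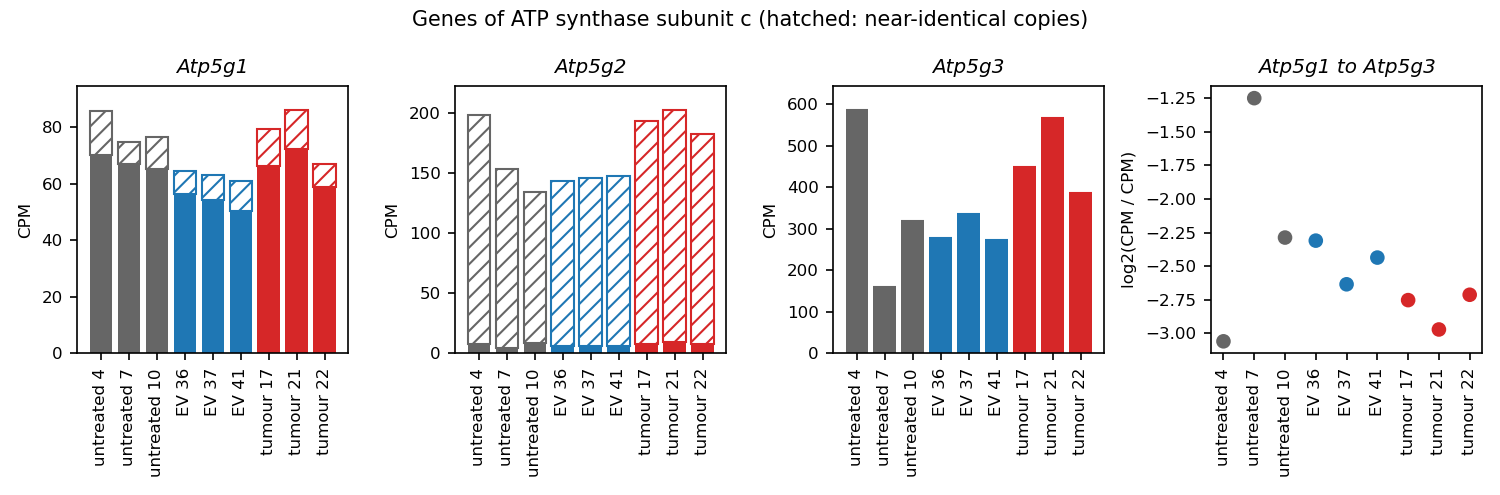
CPM of the 3 genes of subunit c in each library (solid bars, coloured by group) with the counts of their near-identical copies stacked on top (hatched), and the log2 ratio of Atp5g1 to Atp5g3. Atp5g1 stays between 50.5 and 72.2 CPM, Atp5g3 spans 159 to 585 CPM, and nearly all Atp5g2 counts lie on copies.

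Within the tumour-bearing group, the mean of mice 17 and 22 was below mouse 21 for 32 of the 33 genes, to degrees that varied between subunits. The median log2 difference, of that mean over mouse 21, was 0.052 over 10842 genes of at least 5 CPM in each tumour-bearing library. Cox7b was at 148 and 141 CPM in mice 17 and 22 and at 281 CPM in mouse 21, and Uqcrb at 115 and 106 against 209.8 CPM. Sdha (905 and 794.5 against 864.5 CPM), Sdhc and Atp5h were nearly level, and Uqcr11 (219 and 202 against 184 CPM) was the 1 gene that was higher in mice 17 and 22. The log2 difference ran from -0.96 (Cox7b) to 0.19 (Uqcr11), while mice 17 and 22 differed from each other by at most 0.24 on the log2 scale (Uqcrc1).
The 4 genes with the lowest values, Cox7b, Uqcrb, Cox6c and Cycs, had a coding GC content of 47.5, 42.9, 50.4 and 46.0%, and Uqcr11 had 60.7%. Across the 33 genes, which share the libraries, Spearman's rho of the difference with coding GC content was 0.55. With the GC content of the longest annotated transcript it was 0.52 over the 33 and 0.16 over 10842 genes of at least 5 CPM in each tumour-bearing library. The deposited TPM columns set mice 17 and 22 apart from mouse 21 as well, by an exact linear relation among columns that held, to within 0.0001, in all 14954 genes examined, but in 0.025% of them for the counts. Skeletal muscle markers summed to 3212 and 3903 CPM in mice 17 and 22 and to 8496 CPM in mouse 21. The 6 macrophage markers summed to 871 and 1221 against 2365 CPM. The 10 fat cell markers, at 56070 and 47380 against 55940 CPM, did not set mouse 21 apart. Whether tissue makeup, library preparation or batch plays a part was not tested.

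**Figure D5:**
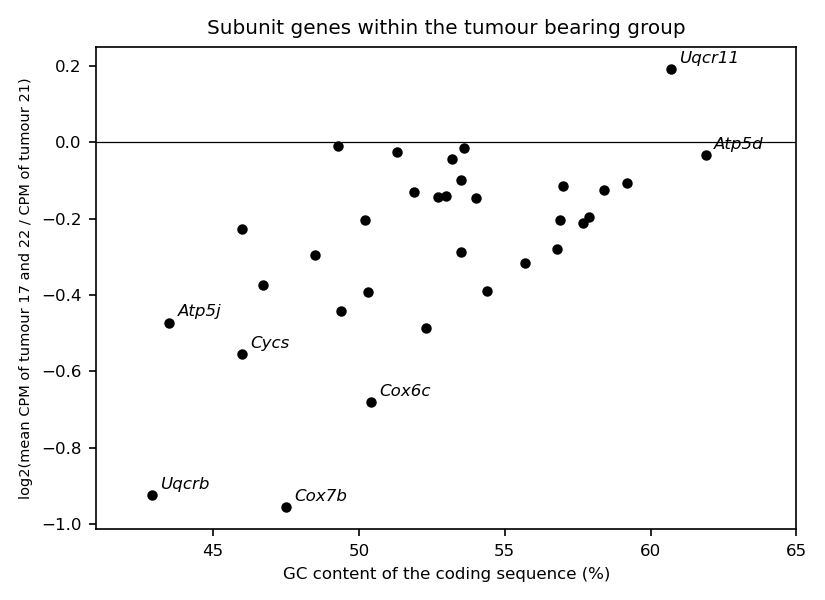
Log2 of the mean CPM of tumour-bearing mice 17 and 22 over the CPM of mouse 21 (vertical axis) against the GC content of the coding sequence in percent (horizontal axis) for the 33 genes. Cox7b and Uqcrb lie lowest, at -0.96 and -0.92, and Uqcr11 is the only gene above 0.

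Mitochondrially encoded partners did not keep a fixed proportion to the nuclear subunits. The 6 transcripts of complexes III to V from the mitochondrial genome summed to 77510, 15170 and 16950 CPM in untreated 4, 7 and 10, to 19650, 34400 and 22270 CPM in EV 36, 37 and 41 and to 35340, 80090 and 28600 CPM in tumour-bearing 17, 21 and 22. That was 5.62, 3.15 and 3.31 times the sum of the 33 nuclear genes in untreated, 3.71, 3.53 and 3.54 times in EV and 2.92, 6.09 and 2.62 times in tumour-bearing mice. By this summed ratio untreated 4 and tumour-bearing 21 stood apart from the other 7. The sum is not an even account of the 6 transcripts. In untreated 4 mt-Co2, mt-Co3, mt-Atp6 and mt-Atp8 were at only 229, 883, 673.5 and 1770 CPM of the 77510 CPM. The level of mt-Co3, given below, did not set tumour-bearing 21 apart from tumour-bearing 22. Median log2 fold changes of the 6 were -0.54, 0.35 and 0.87 in the 3 comparisons and 0 were called. The lowest p values belonged to mt-Co3, a subunit of complex IV, in both tumour comparisons, at 1.22 ± 0.94 and 1.80 ± 0.95 (edgeR adjusted p = 0.557 and 0.380). It was at 883, 25.0 and 257 CPM in untreated, 216, 289 and 274 CPM in EV and 683, 1027 and 996 CPM in tumour-bearing mice. mt-Atp6, mt-Co2 and mt-Atp8 were the others of lowest p.

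Other genes of the pathway were counted from lists. Of 36 complex I nuclear subunits, 0 were called in any comparison, with medians of -0.08, 0.62 and 0.69, and 26 were higher without overlap in tumour-bearing than in EV libraries (11.7% of all genes), or 10 without TMM scaling (4.06%). Ndufb11 had the lowest p among them, at 0.66 ± 0.28 against untreated and 0.68 ± 0.28 against EV (edgeR adjusted p = 0.421 and 0.351). It was the 1 of 36 at an unadjusted p under 0.05 in each tumour comparison (11.9 and 14.1% of all genes). Ndufa13, Ndufa11 and Ndufa1 were the others of lowest p. The 13 tricarboxylic acid cycle enzymes had medians of -0.05, 0.68 and 0.76 with 0 called. At an unadjusted edgeR p under 0.05 there were 0, 0 and 1 (1.19, 11.9 and 14.1% of all genes). Suclg2, a subunit of succinate-CoA ligase, had log2 fold changes of -0.54 ± 0.25 in EV versus untreated and 0.79 ± 0.25 in tumour bearing versus EV (edgeR adjusted p = 1.0 and 0.351). Ogdh, of the oxoglutarate dehydrogenase complex, was at 0.97 ± 0.48 and 1.02 ± 0.48 in the tumour comparisons, and Idh3g and Dld were the others of lowest p.
Assembly factors, of which 34 of 35 passed the filter on low counts, had medians of -0.03, 0.28 and 0.30 with 0 called, and without TMM scaling the last turned to -0.09. Atpaf1, which helps the beta subunit into the ATP synthase, had a value of 0.59 ± 0.22 in tumour bearing versus untreated (edgeR adjusted p = 0.418). It was at 28.1, 19.4 and 22.9 CPM in untreated and 39.7, 30.9 and 35.0 CPM in tumour-bearing mice. Coa5, at 0.95 ± 0.39 in tumour bearing versus EV (edgeR adjusted p = 0.351), was the 1 with an unadjusted p under 0.05 there (14.1% of all genes). Uqcc2, Coa3 and Sdhaf2 were the others of lowest p.
The 8 ATP synthase partners had medians of -0.15, 0.32 and 0.49 with 0 called. Atpif1, the inhibitor that stops the ATP synthase from running backwards, had the opposite sign to the subunits, at -1.09 ± 0.38 in tumour bearing versus untreated and -0.89 ± 0.37 in tumour bearing versus EV (edgeR adjusted p = 0.418 and 0.351). It was at 33.3, 76.0 and 86.1 CPM in untreated, 64.1, 36.9 and 69.7 CPM in EV and 28.3, 31.8 and 31.9 CPM in tumour-bearing mice, so that its 4 highest libraries were the 4 in which the subunits were low. Atp5s was negative as well, at -0.74 ± 0.29 and -0.85 ± 0.29. These 2 of the 8 partners had an unadjusted edgeR p under 0.05 in each tumour comparison, where 11.9 and 14.1% of all genes did. Slc25a5 and Atp5mpl had the lowest p in EV versus untreated.
Of 14 regulators of nuclear respiratory genes, 0 were called, with medians of -0.03, 0.21 and 0.25, of which the last 2 turned to -0.13 and -0.17 without TMM scaling. Ppargc1a, a coactivator of mitochondrial biogenesis, was at 4.49, 3.73 and 1.58 CPM in untreated, 2.47, 3.79 and 3.48 CPM in EV and 8.85, 23.8 and 5.67 CPM in tumour-bearing mice, with log2 fold changes of 1.96 ± 0.63 and 1.97 ± 0.63 in the 2 tumour comparisons (edgeR adjusted p = 0.418 and 0.351). Its relative Ppargc1b was at 5.49, 6.15 and 1.92 CPM in untreated, 1.76, 4.09 and 1.97 CPM in EV and 9.86, 13.2 and 8.35 CPM in tumour-bearing mice. Both coactivators, named for their low p, were higher in every tumour-bearing library than in any other, and neither passed the test. Skeletal muscle markers were also highest in these libraries, at 3212, 8496 and 3903 CPM in tumour-bearing 17, 21 and 22. Like both coactivators, these markers peaked in tumour-bearing 21, and their part was not tested. Of the 14 regulators 2 were higher without overlap in tumour-bearing than in untreated libraries (5.64% of all genes). Against EV libraries 3 were (11.7%). Yy1 was the other regulator of lowest p, at -0.20 ± 0.17 in EV versus untreated.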

How the data were processed

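The authors deposited, per gene ID and mouse, expected counts (estimated counts, not whole numbers) and columns named TPM. Per the study's methods they trimmed, aligned (HISAT2), assembled (StringTie), quantified (RSEM) and tested with DESeq2; in the submitters' processing notes the tool is Bowtie 0.12.2 and the builds are mm8 with mm9, so no coordinate of theirs was used. The deposited TPM columns follow an undocumented adjustment and were treated as a score in 1 alternative only. The table matched a symbol for 52093 of 53700 IDs. After rounding, the model was fitted in R 4.3.3 by edgeR 4.0.16 (filterByExpr, 17876 genes kept; TMM factors 0.756 to 1.32; quasi-likelihood test over all 9 libraries; Benjamini-Hochberg over all genes; biological coefficient of variation 62.8%). The standard error (SE) is the absolute log2 fold change over the square root of F. Levels are TMM-scaled CPM without length correction, so they compare libraries and not genes. Alternatives were DESeq2 1.42.0, limma 3.58.1 on log2(value + 1), other scaling and filters, leaving libraries out, inferred batches and copies added. The inferred batches were untreated 7 alone, tumour-bearing 17 with 22, and all other libraries. In EV versus untreated the batch term therefore amounts to leaving untreated 7 out. In the tumour comparisons tumour-bearing 21 is then the only tumour-bearing library compared within its batch. This step was tested on simulated data with known changes. No 2 libraries of a group were copies of 1 another, with chi-square over degrees of freedom at 32.2 to 925. Members, lists and rules were chosen with earlier results of these data known. Values in every library are given, within each complex, for the gene of highest mean CPM and of lowest p in each comparison and for the subunit c genes; in the other lists the 2 of lowest p in a comparison are named. The contrast within the tumour-bearing group and the Atp5b to Atp5a1 ratio were chosen after their values were seen. Sequences came from GENCODE M21 and RefSeq (copies by blastn), and coding sequences were those of the longest transcript annotated as principal.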

Additional observations from a re-analysis of the deposited data

How the results depend on the processing

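None of the 33 genes was called in any comparison under any alternative run. Leaving out 1 library kept the sign of the median in both tumour comparisons but not in EV versus untreated, where it ranged from -0.45 to 0.48; it ranged from 0.36 to 1.26 in tumour bearing versus untreated and from 0.51 to 1.05 in tumour bearing versus EV. The cause of the shifts below was not tested. All-gene medians without TMM scaling were 0.12, -0.45 and -0.48. Genes called in EV versus untreated numbered 1, and 4 with no filter on low counts, 2 with a filter of 1 CPM in 3 libraries, 0 with the 6 libraries compared, without the 4 libraries with ovary or smooth muscle transcripts, with inferred batches or without IDs that share a symbol, 16 with DESeq2, 5 with limma and 0 to 2 with 1 library left out. In tumour bearing versus untreated they numbered 39, and 0 without the 4 libraries, 4 with batches, 743 with DESeq2, 1 with limma and 8 to 38 with 1 library left out. In tumour bearing versus EV they numbered 46, and 111 with the 6 libraries compared, 0 without the 4 libraries, 27 with batches, 904 with DESeq2, 8 with limma and 0 to 70 with 1 library left out. With those 6 libraries 16 of the 33 genes and 22.7% of all genes had an unadjusted edgeR p under 0.05 (lowest adjusted p of the 33 = 0.163), and without untreated 4, 19 and 19.5% did (0.235). The median of the 33 moved to -0.16 in tumour bearing versus untreated and 0.24 in tumour bearing versus EV without the 4 libraries, and to 0.35 in the latter with no scaling factors.

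In EV versus untreated these log2 fold changes turned sign. With no scaling factors Sdha was 0.14, Sdhc 0.036, Uqcrc1 0.18, Cycs 0.12, Cox5a 0.060, Cox5b 0.16 and Atp5b 0.092. Sdhb, Uqcr11 and Atp5j2 were -0.0076, -0.0048 and -0.0015 with no filter, -0.0227, -0.0194 and -0.0163 with the 6 libraries, -0.375, -0.092 and -0.19 without the 4 libraries, -0.36, -0.24 and -0.19 with batches, and -0.0206, -0.0184 and -0.0117 with DESeq2; with limma Sdhb was -0.12 and Uqcr11 -0.10. The values with batches nearly equal those without untreated 7, so they are not a separate adjustment. In tumour bearing versus untreated, Cox6c was -0.064 and Atp5g2 -0.051 with no scaling factors. Without the 4 libraries Sdha was -0.14, Sdhb -0.062, Sdhc -0.18, Uqcrc1 -0.062, Uqcr10 -0.22, Cycs -0.42, Cox5a -0.14, Cox6c -0.32, Atp5b -0.23 and Atp5g3 -0.33. Atp5g1 was 0.091 with batches and 0.20 with limma. In tumour bearing versus EV, with no scaling factors Cox6c was -0.0086, Atp5g1 -0.14 and Atp5g2 -0.0121, and without the 4 libraries Cycs was -0.008.

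With 1 library left out, values that changed sign ranged in EV versus untreated from -0.45 to 0.79 (Sdha), -0.40 to 0.95 (Sdhb), -0.57 to 0.47 (Sdhc), -0.37 to 0.65 (Uqcrc1), -0.70 to 0.13 (Uqcr10), -0.46 to 0.62 (Uqcr11), -0.71 to 0.89 (Cycs), -0.43 to 0.48 (Cox5a), -0.37 to 0.55 (Cox5b), -0.44 to 0.11 (Cox6c), -0.53 to 0.74 (Atp5b), -0.52 to 0.067 (Atp5e), -0.37 to 0.011 (Atp5g2), -0.61 to 0.31 (Atp5g3) and -0.22 to 0.45 (Atp5j2). In tumour bearing versus untreated they ranged from -0.083 to 0.52 (Cox6c) and -0.10 to 0.029 (Atp5g1). The log2 ratio of Atp5g1 to Atp5g3 in EV versus untreated ranged from -0.69 to 0.21, the latter without untreated 7. No paired analysis was possible because each library is a mouse with a number of its own.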
